A study of Mus musculus with 15 samples.

Results

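Transcripts of 7 GABA receptor subunit genes were followed across the mouse dentate gyrus (DG): Gabra2, Gabra4, Gabra5, Gabrb1, Gabrb2, Gabrd and Gabbr1. They were found by symbol alone among the 32657 genes of the count files. All 7 were present in every library and passed the filter on low counts in each of the 9 comparisons. Gabrd had the fewest counts, 197 to 439 per library.

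GABA is the main inhibitory transmitter of the forebrain. GABA-A receptors are chloride channels assembled from several subunits, usually alpha and beta subunits with a gamma or a delta subunit, and the subunits set where a receptor sits and how it responds. Receptors clustered at synapses pass brief phasic currents. Receptors with alpha4 and delta lie outside synapses, respond to low ambient GABA and carry much of the tonic current of DG granule cells. Receptors with alpha5 are also largely extrasynaptic in the hippocampus. The GABA-B receptor is instead a G protein-coupled receptor made of the products of Gabbr1 and Gabbr2.

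On the mm10 genome (GRCm38, GENCODE annotation M21) 3 of the genes lie together on chromosome 5. Gabra2 spans 70957597 to 71095849 on the minus strand, Gabra4 spans 71569749 to 71658308 on the minus strand, and Gabrb1 spans 71658113 to 72149037 on the plus strand. Gabra4 and Gabrb1 meet head to head and overlap by 196 bases. Only 46 exonic bases, or 0.756% of the exonic length of Gabra4, are shared, so few reads could not be told apart between them. Gabra5 lies on chromosome 7 at 57407672 to 57510059 (minus strand) and shares 148 exonic bases (4.98%) with the gene Gm9962 on the other strand. Gabrb2 lies on chromosome 11 at 42419757 to 42629028 (plus strand), Gabrd on chromosome 4 at 155384980 to 155398112 (minus strand) and Gabbr1 on chromosome 17 at 37045966 to 37075067 (plus strand). Each value below counts reads over all exons of a gene.

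The study examined loss of the serotonin receptor 5-HT4R, encoded by Htr4, from excitatory neurons of the hippocampus. Both genotypes carried the Drd3-Cre driver KI198 and the Cre-dependent reporter Rosa26-fsTRAP, which places EGFP on ribosomal protein L10a, and cKO mice were in addition Htr4-Floxed. Tissue came from mice 8 to 12 weeks old. Translating ribosome affinity purification (TRAP) with antibodies to EGFP gave the mRNA bound to ribosomes of Cre-expressing cells (IP) from ventral DG (vDG), and RNA of the whole tissue (input) was taken from vDG and from dorsal DG (dDG). There were 3 WT and 2 cKO libraries each of vDG IP, vDG input and dDG input, 15 in all, and no dDG IP. The driver is active in mature granule cells, hilar mossy cells and a subset of CA pyramidal cells. It is not active in interneurons, immature neurons or glia. An IP therefore averages over granule cells, mossy cells and any tagged CA pyramidal cells in the dissected tissue. Each library was made from pooled mice, 3 per IP and 2 per input by the sample records and 1 male and 1 female by the study's methods. For the inputs, 1 field of the sample records gives cortex as the tissue, whereas titles and the region field give vDG or dDG, and these were followed.

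Libraries held 19039295 to 30451430 counts on genes (median 24915901). Htr4 was not lower in cKO libraries: it measured 13.6 to 16.0 CPM (counts scaled to the same library total, after TMM) in the 3 WT vDG IPs and 26.7 and 29.8 CPM in the cKO vDG IPs, with the same order in both inputs. The floxed allele loses part of the gene, which counts over the whole gene do not resolve, so these counts do not check the deletion. Dissection was checked with Lct and Trhr. Lct, a dorsal marker, measured 128 to 181 CPM in the 5 dDG inputs and 29.99 to 48.4 CPM in the vDG inputs, and Trhr, a ventral marker, was at most 0.718 CPM in dDG and at least 14.7 CPM in vDG. The 6 granule cell markers summed to 2079 to 2346 CPM in WT IPs and to 1828 CPM or more in WT vDG inputs, which overlapped, while the 6 astrocyte markers fell from 445 to 545 CPM in input to 57.9 to 105 CPM in IP. The 9 interneuron markers summed to 460 to 535 CPM in WT vDG input and to 167 to 197 CPM in the WT IPs. Most of the IP sum came from Gad1 and Gad2, at means of 104.8 and 68.39 CPM. Gad1 fell little, from a mean of 122.1 CPM in WT vDG input (log2 fold change -0.282, edgeR adjusted p = 0.0878). By edgeR 8 of the 9 markers were lower in the WT IPs, and the median log2 fold change of the 9 was -2.93. The 4 CA pyramidal markers summed to 299 to 415 CPM in the WT IPs, above the 223 to 295 CPM of the WT vDG inputs. In cKO they summed to 344 to 435 CPM in IP and 260 to 261 CPM in vDG input. Levels in IP are thus not those of granule and mossy cells alone. Choroid plexus markers summed to 17.9 to 144 CPM across inputs, the highest value being a WT dDG library.

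To set the genes beside each other, CPM were divided by the kilobases of annotated exons. In WT vDG IP, Gabra5 was the most abundant at 83.3 ± 16.6 CPM per kilobase (SD, n = 3). Gabrb2 followed at 43.6 ± 3.82 (SD, n = 3), then Gabbr1 at 34.1 ± 3.48 (SD, n = 3) and Gabra4 at 22.2 ± 2.51 (SD, n = 3). Gabra2 at 5.95 ± 1.84, Gabrd at 4.27 ± 1 and Gabrb1 at 3.73 ± 0.491 CPM per kilobase (SD, n = 3 each) formed a lower tier. Neighbours in this order did not share any part of their ranges over libraries except Gabra2 with Gabrd and Gabrd with Gabrb1, which could not be ordered. So the 2 subunits of the tonic alpha4-delta receptor lay far apart in transcript level, with Gabra4 in the upper tier and Gabrd in the lower.

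**Figure D1:**
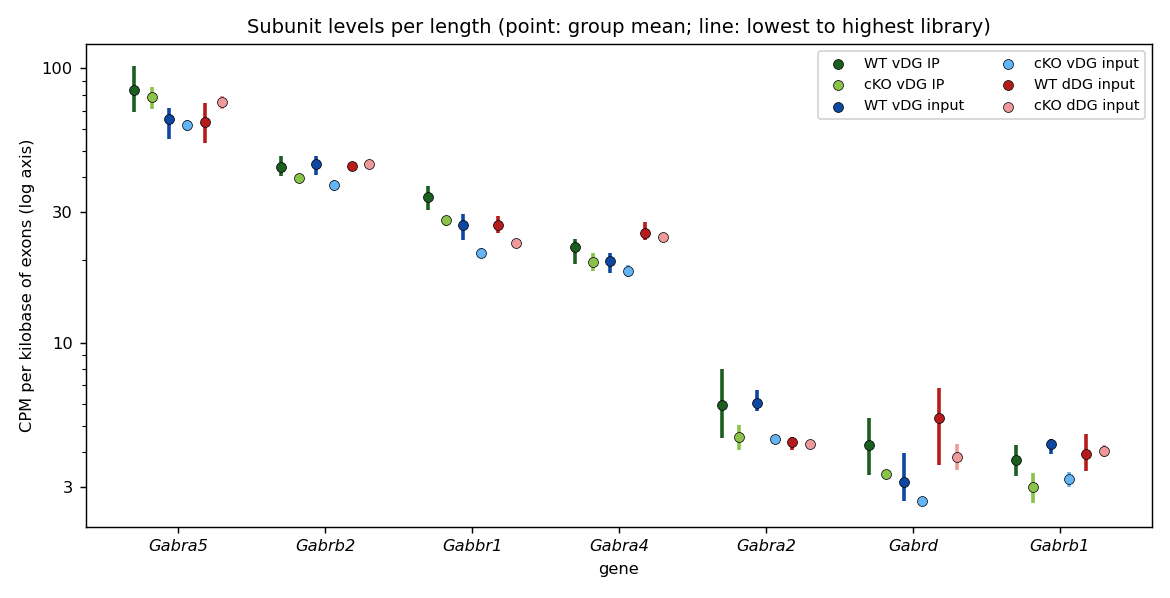
Level of each gene per length, in CPM per kilobase of annotated exons on a log axis, for the 6 groups; points are group means and lines run from the lowest to the highest library (3 libraries per WT group and 2 per cKO group). Gabra5 and Gabrb2 were first and second in all 6 groups, and Gabra2, Gabrd and Gabrb1 stayed below 10 CPM per kilobase.

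Gabra5 and Gabrb2 held the first and the second place in all 6 groups. Gabbr1 was the third and Gabra4 the fourth, except that Gabra4 passed Gabbr1 in cKO dDG input, at 24.3 ± 0.529 against 23.0 ± 0.391 CPM per kilobase (SD, n = 2 each). In WT dDG input these genes overlapped. The lower tier changed its order between groups. Gabrd had the lowest mean of the 7 in both vDG inputs, at 3.12 ± 0.744 (SD, n = 3) in WT and 2.65 ± 0.107 CPM per kilobase (SD, n = 2) in cKO, and also in cKO dDG input at 3.86 ± 0.593 (SD, n = 2). In WT dDG input it was the fifth at 5.32 ± 1.63 (SD, n = 3), where its libraries overlapped those of Gabra2 and Gabrb1. Its libraries also overlapped those of Gabrb1 in WT vDG and cKO dDG input, so of these groups it was the lowest beyond the spread in cKO vDG input alone. With the longest annotated transcript in place of all exons, Gabrd changed places with Gabra2 in WT dDG and with Gabrb1 in cKO dDG, and no gene did elsewhere.

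The IP was compared with the vDG input to ask which subunit transcripts were concentrated in Cre-expressing cells. In WT mice none of the 7 genes passed an FDR of 0.05 by edgeR's quasi-likelihood test, against 23.9% of all 15011 genes tested (7.73% higher and 16.1% lower in IP, and 7.72% past the fold that the study set for enrichment). DESeq2 called 0 of 7 as well, against 4168 of 17945 genes. By edgeR 1 of 7, Gabbr1, had an unadjusted p under 0.05, against 36.1% of genes. The members' median log2 fold change (IP over input) was 0.10, beside 0.00 over all genes. Of all calls 67.6% were lower in IP, and 86.1% with library size alone, which moved the median of all genes to -0.13.

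**Figure D2:**
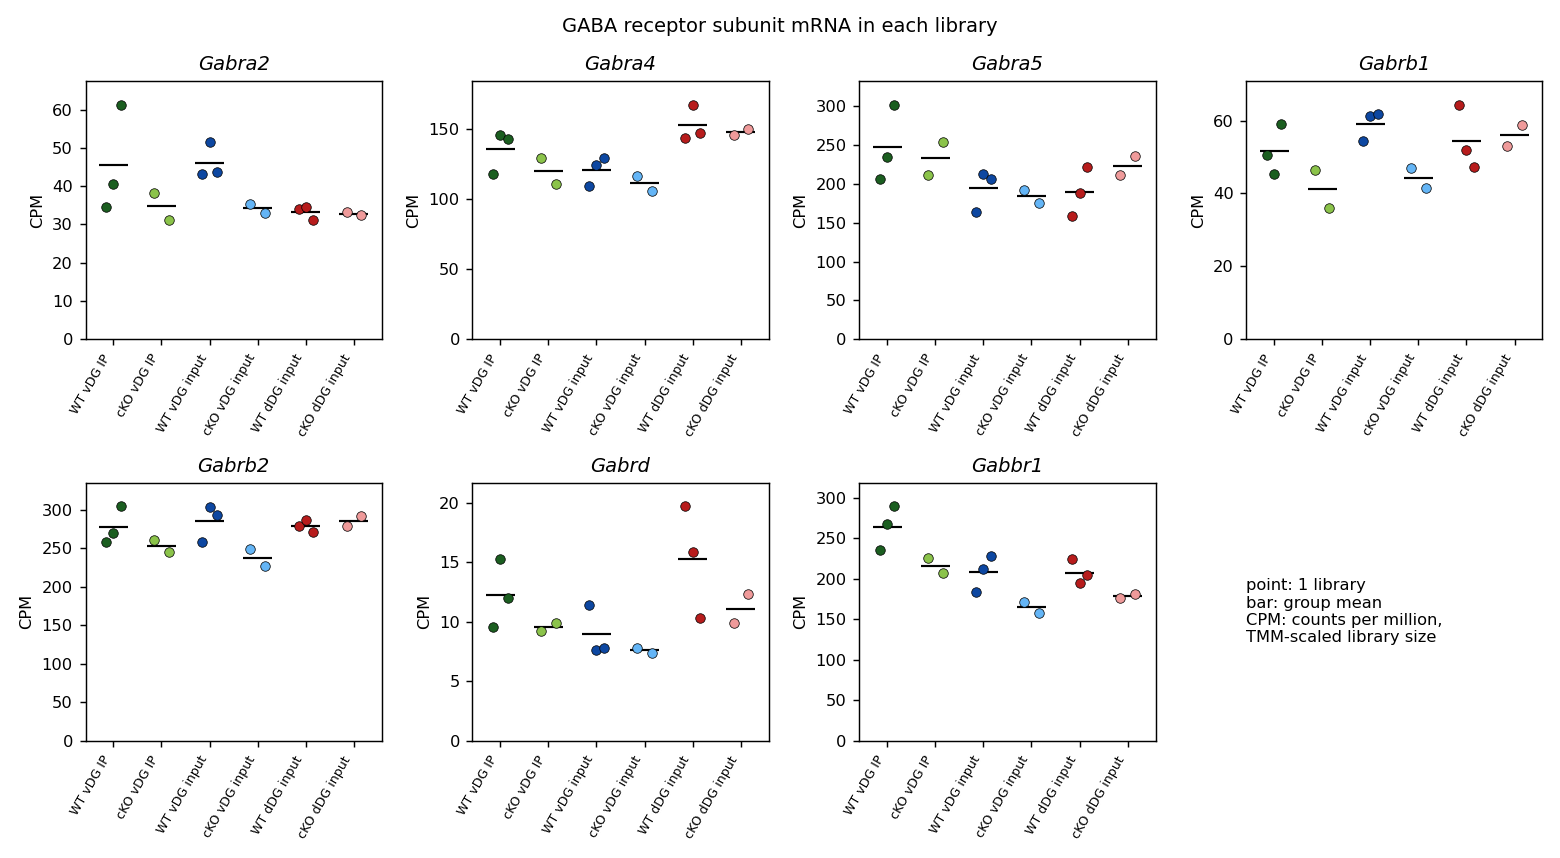
CPM of each of the 7 genes in every library, by group; points are libraries, bars are group means and each axis starts at 0 CPM. The 3 WT vDG IPs of Gabbr1 (236 to 290 CPM) lay above the 3 WT vDG inputs (184 to 229 CPM), and all 5 vDG inputs of Gabra4 lay below all 5 dDG inputs.

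Gabra4 measured 118, 146 and 143 CPM in the WT vDG IPs and 109, 124 and 129 CPM in the WT vDG inputs. The ranges overlapped, and the log2 fold change was 0.10 (SE 0.12, edgeR adjusted p = 0.586). Gabrd measured 9.53, 15.3 and 12.0 CPM in the IPs and 11.4, 7.67 and 7.80 CPM in the inputs. The first IP lay below the first input, so the groups overlapped, and the log2 fold change was 0.39 (SE 0.22, edgeR adjusted p = 0.215). Neither tonic subunit was distinguished between IP and whole tissue at this replication. Of the 6 granule cell markers 2 were called higher in the same comparison.

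Gabbr1 was the only one of the 7 whose WT IPs all lay above the WT inputs, at 236, 268 and 290 CPM against 184, 212 and 229 CPM. Over all genes, 20.9% had IPs wholly above inputs and 20.7% wholly below. Its log2 fold change was 0.28 (SE 0.12, edgeR adjusted p = 0.112). Gabra5 differed by a similar amount, 0.29 (SE 0.15, edgeR adjusted p = 0.174), but its libraries overlapped. The beta subunits leaned the other way, Gabrb1 by -0.26 (SE 0.13, edgeR adjusted p = 0.165) and Gabrb2 by -0.10 (SE 0.12, edgeR adjusted p = 0.571), and Gabra2 gave -0.09 (SE 0.18, edgeR adjusted p = 0.762).

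In cKO mice 1 of the 7, Gabbr1, passed, against 27.5% of 15126 genes tested (11.8% higher and 15.7% lower in IP). Of these calls 57% were lower, and 81.1% with library size alone, at a median of all genes of -0.196. Unadjusted p-values were under 0.05 for 2 of 7, Gabra5 and Gabbr1, against 38.9% of genes. Gabbr1 measured 226 and 207 CPM in the cKO IPs and 172 and 158 CPM in the cKO inputs, so the groups were apart, as they were for Gabra5 and Gabrd. That held in this direction for 32% of genes and in the other for 33%. It was higher by 0.37 (SE 0.10, edgeR adjusted p = 0.0177), past the study's limit for enrichment, as 11.4% of genes were. The edgeR adjusted p was 0.0664 without cKO vDG IP replicate 1, 0.104 without cKO vDG input replicate 2 and 0.19 with library size alone.

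Gabra5 came next in cKO, at 212 and 254 CPM in IP and 193 and 175 CPM in input, with a log2 fold change of 0.31 (SE 0.11, edgeR adjusted p = 0.0528). It passed the threshold in 8 of 13 alternatives, among them DESeq2 (adjusted p = 0.0276), with log2 values from 0.144 with library size alone to 0.655 with a length trend removed. Without cKO vDG IP replicate 1 it was 0.478 (edgeR adjusted p = 0.0063) and without replicate 2 it was 0.183 (edgeR adjusted p = 0.372). Gabrd measured 9.24 and 9.88 CPM in IP and 7.83 and 7.40 CPM in input, a log2 difference of 0.30 (SE 0.22, edgeR adjusted p = 0.334). Gabra4, at 129 and 111 CPM in IP and 116 and 106 CPM in input, differed by 0.08 (SE 0.11, edgeR adjusted p = 0.637). Removing a trend with gene length changed this: Gabra4, Gabra5, Gabrd and Gabbr1 then passed in WT, and Gabrb2 besides in cKO. In WT Gabrd was at 0.68 (edgeR adjusted p = 0.0185) and Gabra4 at 0.30 (edgeR adjusted p = 0.0487). The calls over all genes rose too, from 3582 to 6655 of 15011 in WT and from 4167 to 6610 of 15126 in cKO. That step also moved the median of all genes to 0.21 in WT and 0.22 in cKO, and once the libraries were rescaled neither tonic subunit passed in either genotype. With library size alone the sign of Gabra4 turned (-0.03 in WT, -0.08 in cKO).

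**Figure D3:**
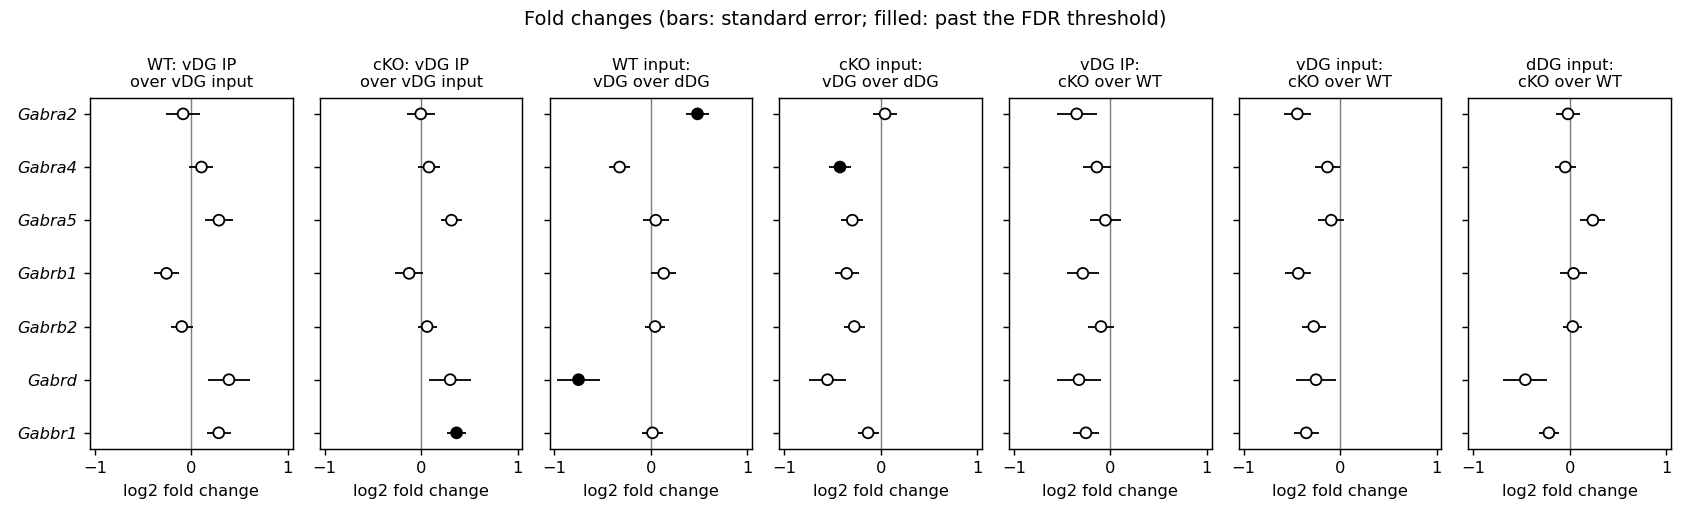
Log2 fold changes of the 7 genes in 7 comparisons of groups; bars are standard errors and filled points passed the FDR threshold (0.1 for cKO over WT in vDG IP, 0.05 elsewhere). The 4 filled points are Gabbr1 in IP over input of cKO, Gabra2 and Gabrd in vDG over dDG of WT, and Gabra4 in vDG over dDG of cKO.

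Of 41 other genes of GABA signaling, 32 were tested in WT IP over input, of which 2 were higher and 9 lower in IP. Gabbr2, the partner that carries the G protein coupling of the GABA-B receptor, was higher by 0.42 (SE 0.13, edgeR adjusted p = 0.033), at 217 against 155 CPM. That call was lost without WT vDG IP replicate 2 or 3 or WT vDG input replicate 1 or 3 (edgeR adjusted p of 0.0515, 0.0756, 0.114 and 0.116). Slc12a5, which encodes the neuronal chloride exporter KCC2, was higher by 0.53 (SE 0.14, edgeR adjusted p = 0.0113), and without WT vDG input replicate 1 its edgeR adjusted p was 0.0638. Among the lower genes were Gad2, a GABA synthesis enzyme of interneurons, by -2.05 (SE 0.12) and Slc6a11, the glial transporter GAT3, by -1.97 (SE 0.19). Of the subunits outside the members, Gabra3 was lower by -1.46 (SE 0.24) and Gabrg1 by -1.92 (SE 0.22). Kctd12b, Slc32a1, Abat and Slc12a2 were lower as well, and Abat missed the threshold in 4 of 6 fits that left out 1 library (edgeR adjusted p of 0.0517 to 0.0599).

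In cKO, 33 of the 41 were tested, with 4 higher and 12 lower. Gabbr2 was again higher, by 0.56 (SE 0.10, edgeR adjusted p = 0.00204), and this call held in all 13 alternatives. Slc12a5 was higher by 0.61 (SE 0.10, edgeR adjusted p = 0.000878). Kcnj3 was higher by 0.34 (SE 0.12, edgeR adjusted p = 0.0464). Gabra3 was lower by -2.09 (SE 0.31) and Gabrg1 by -1.62 (SE 0.32). Also lower were Gabrg3, Gad2, Slc32a1, Abat, Slc6a11, Slc12a2, Kctd8, Kctd12b and Slc6a13, the last with no counts in either IP. Calls of Kcnj3, Gabrg3, Kctd8 and Kctd12b were lost when 1 or another library was left out, at edgeR adjusted p of up to 0.339 without cKO vDG input replicate 2 (Kcnj3) and 0.305 without replicate 1 (Kctd8).

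Ventral and dorsal inputs were compared within each genotype to ask how the subunits differ along the long axis of the DG. These are whole-tissue values, in which fewer cells of a type and less RNA per cell cannot be told apart. In WT mice 2 of the 7 genes passed, against 15.3% of 15412 genes (9.26% higher and 6.09% lower in vDG). Unadjusted p-values were under 0.05 for these and Gabra4, against 27.2% of genes. Gabra2 was higher and Gabrd lower in vDG, and Gabra4 lay below its dDG values without passing. The members' median was 0.04, beside -0.01 over all genes.

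Gabra2 measured 43.1, 51.4 and 43.7 CPM in the WT vDG inputs and 33.96, 34.6 and 31.3 CPM in the WT dDG inputs. The groups were apart, which in this direction held for 16.2% of genes. The difference was 0.48 (SE 0.12, edgeR adjusted p = 0.0125). It missed the threshold without WT vDG input replicate 2 (edgeR adjusted p = 0.0581), without WT dDG input replicate 3 (0.0513) and with all 15 libraries in a single fit (0.0543), and ranged from 0.40 to 0.52 over 12 alternatives.

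Gabrd measured 11.4, 7.67 and 7.80 CPM in WT vDG input and 19.7, 15.9 and 10.4 CPM in WT dDG input. The lowest dDG library lay below the highest vDG library, so the groups overlapped. The difference was -0.75 (SE 0.22, edgeR adjusted p = 0.0275). The call was lost when WT vDG input replicate 2 (edgeR adjusted p = 0.143) or 3 (0.117) or WT dDG input replicate 1 (0.135) or 2 (0.0746) was left out, with log2 values between -0.98 and -0.53 over the 6 fits that left out 1 library.

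Gabra4 measured 109, 124 and 129 CPM in WT vDG input and 144, 167 and 147 CPM in WT dDG input. All dDG libraries lay above all vDG libraries, as for 15.2% of genes. The difference was -0.32 (SE 0.11, edgeR adjusted p = 0.0606), and DESeq2 placed it past the threshold (-0.33, DESeq2 adjusted p = 0.0316). The other 4 members differed by 0.02 to 0.13, with overlapping libraries and edgeR adjusted p of 0.567 or more.

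In cKO mice 1 of the 7 passed, against 17% of 15505 genes (8.56% higher and 8.47% lower in vDG). Unadjusted p-values were under 0.05 for 5 of 7, against 30.3% of genes. Gabra4 measured 116 and 106 CPM in vDG and 145 and 150 CPM in dDG, with groups apart. The log2 difference was -0.42 (SE 0.11, edgeR adjusted p = 0.0116). The edgeR adjusted p was 0.0674 without cKO vDG input replicate 2, 0.0795 without cKO dDG input replicate 2 and 0.0538 with all libraries in a single fit.

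Gabrd measured 7.83 and 7.40 CPM in cKO vDG input and 9.89 and 12.3 CPM in cKO dDG input, a difference of -0.55 (SE 0.19, edgeR adjusted p = 0.0515). It passed the threshold in 5 of 10 alternatives, with log2 values from -0.72 without cKO dDG input replicate 1 (edgeR adjusted p = 0.0361) to -0.38 without replicate 2 (edgeR adjusted p = 0.469), and DESeq2 gave an adjusted p of 0.101. In cKO the other members except Gabra2 also lay lower in vDG, with Gabrb1 at -0.35 (SE 0.13, edgeR adjusted p = 0.058), Gabra5 at -0.29 (SE 0.11, edgeR adjusted p = 0.0798), Gabrb2 at -0.27 (SE 0.11, edgeR adjusted p = 0.0916) and Gabbr1 at -0.13 (SE 0.11, edgeR adjusted p = 0.459). Libraries of 6 of the 7 were apart in this direction, as they were for 27.6% of all genes, with 30.6% apart in the other. The members' median was -0.29, beside 0.01 over all genes. Gabra2 gave 0.05 (SE 0.13, edgeR adjusted p = 0.848), at 35.5 and 32.9 CPM in vDG against 33.2 and 32.5 CPM in dDG.

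Cell type markers also moved with region. The granule cell markers summed to 2641 to 2745 CPM in WT dDG and to 1828 CPM or more in the WT vDG inputs, all below WT dDG, and 3 of 6 were lower in vDG in WT and 5 of 6 in cKO. The 4 mossy cell markers summed to 70.02 to 89.2 CPM in WT vDG and 8.165 to 9.94 CPM in WT dDG, with Calb2 at a mean of 69.9 against 2.20 CPM, while Nmb of the same list was lower in vDG in WT (-1.63, edgeR adjusted p = 0.00132) and in cKO (-1.36, edgeR adjusted p = 0.0139). The 4 CA pyramidal markers summed to 223 to 295 CPM and 83.1 to 156 CPM, with Neurod6 at a mean of 224 against 80.4 CPM, while Fibcd1 was lower in vDG in WT (-1.77, edgeR adjusted p = 0.00125) and in cKO (-0.946, edgeR adjusted p = 0.0218). The 9 interneuron markers summed to 309 to 379 CPM in WT dDG, wholly below WT vDG, and to 395 to 403 CPM in cKO vDG against 329.6 to 349.9 CPM in cKO dDG, with 4 of 9 higher in vDG in WT and 3 of 9 in cKO. The 7 oligodendrocyte lineage markers summed to 325 to 393 CPM in WT vDG and 409.8 to 441 CPM in WT dDG, and 2 of 7 were lower in vDG. The part of these differences in those of the members was not tested.

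Among the other 41 GABA genes, 34 were tested between regions. In WT 6 were higher and 3 lower in vDG, and in cKO 2 were higher and 6 lower. Gabra3 was higher in WT vDG, at 8.87 CPM in vDG against 3.17 CPM in dDG (1.498, SE 0.19, edgeR adjusted p = 2.86e-05), a call that held in all 12 alternatives. In cKO Kcnj6, a GIRK channel subunit opened by GABA-B receptors, was lower in vDG by -0.69 (SE 0.11, edgeR adjusted p = 0.000167), in all 10 alternatives too. Gad2 was higher in WT vDG by 0.61 (SE 0.12, edgeR adjusted p = 0.00119). Gabrg3, Nlgn2 and Abat were higher and Kcnj3 and Kcnj6 lower in WT. In cKO Gabra3 and Slc32a1 were higher, and Kcnj3 and Gphn lower. Of these, all but Abat lost their call without at least 1 of the libraries, at edgeR adjusted p of up to 0.209 in WT (Gabrg3 without WT vDG input replicate 2) and 0.391 in cKO (Gabra3 without cKO dDG input replicate 2).

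The cKO was compared with WT in each tissue to ask whether loss of 5-HT4R was accompanied by other subunit levels. In vDG IP none of the 7 passed an FDR of 0.1 by edgeR, against 0.42% of 14300 genes. DESeq2 also called 0 of 7, against 374 of 8825 genes. By edgeR 0 of 7 had an unadjusted p under 0.05, against 11.7% of all genes. All 7 values were negative, from -0.35 (Gabra2) to -0.05 (Gabra5), although Gabra5 turned to 0.10 with a block for the replicate number. Gabra2, at 34.5, 40.4 and 61.3 CPM in the WT IPs, ranged from -0.516 to -0.089 over 12 alternatives. The median was -0.25, beside 0.00 over all genes. That of the 32 other GABA genes tested was -0.25 as well, with 5 of them positive. Gabbr1, at 226 and 207 CPM in cKO and 236, 268 and 290 CPM in WT, was the only member whose groups were apart (-0.25, SE 0.14, edgeR adjusted p = 0.482). Groups were apart in that direction for 18.3% of genes and in the other for 12%. The 9 interneuron markers summed to 117 to 132 CPM in the cKO IPs, wholly below the WT IPs, and of the 7 tested 6 were negative, though Gad2 alone passed. Their part in the members' values was not tested.

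In these IPs Gabra4 measured 129 and 111 CPM in cKO and 118, 146 and 143 CPM in WT (edgeR adjusted p = 0.745). Gabrd measured 9.24 and 9.88 CPM in cKO and 9.53, 15.3 and 12.0 CPM in WT, a difference of -0.325 (SE 0.23, edgeR adjusted p = 0.607). In both genes the ranges overlapped. Of the other GABA genes tested there, 1 of 32 passed, the synthesis enzyme Gad2, which was lower in cKO by -0.91 (SE 0.15, edgeR adjusted p = 0.0618). It did not pass without WT vDG IP replicate 2 (edgeR adjusted p = 0.153) or without either cKO vDG IP (0.908 and 0.23).

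In vDG input none of the 7 passed an FDR of 0.05 by edgeR, against 2.44% of 15786 genes. DESeq2 called 2 of 7 (Gabra2 and Gabrb1), against 644 of 10481 genes. Unadjusted p-values were under 0.05 for 4 of 7, Gabra2, Gabrb1, Gabrb2 and Gabbr1, against 14.8% of genes. All 7 were negative, with a median of -0.27 beside 0.01 over all genes. Each stayed negative in the 11 alternatives, the value nearest 0 being -0.025 for Gabrd. The median of the 33 other GABA genes tested was -0.25, with 5 of them positive, so this lean was not particular to the members. Of the genes called in this tissue, 368 were lower and 17 higher in cKO. The 385 calls became 638, 247 and 235 without WT vDG input replicate 1, 2 or 3, so their number varied with the libraries used. Leaving out either cKO vDG input leaves a lone cKO library, so such a fit cannot show whether the calls rest on 1 library.

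Gabra2 measured 35.5 and 32.9 CPM in cKO vDG input and 43.1, 51.4 and 43.7 CPM in WT, a difference of -0.44 (SE 0.14, edgeR adjusted p = 0.102, DESeq2 adjusted p = 0.0465). Gabrb1 measured 47.04 and 41.4 CPM against 54.3, 61.4 and 61.9 CPM, a difference of -0.43 (SE 0.14, edgeR adjusted p = 0.0934, DESeq2 adjusted p = 0.0373). Without WT vDG input replicate 1 the edgeR adjusted p was 0.047. Gabrb2, at 249 and 227 CPM against 259, 303 and 293 CPM, differed by -0.27 (SE 0.13, edgeR adjusted p = 0.301). Gabbr1, at 172 and 158 CPM against 184, 212 and 229 CPM, differed by -0.35 (SE 0.13, edgeR adjusted p = 0.176). All 4 genes had cKO libraries wholly below the WT libraries, which held for 17.1% of genes, with 15.7% wholly above. The tonic subunits did not: Gabra4 gave -0.13 (SE 0.13, edgeR adjusted p = 0.675) and Gabrd -0.25 (SE 0.21, edgeR adjusted p = 0.618), with overlapping libraries. Nor did Gabra5, at -0.09 (SE 0.13, edgeR adjusted p = 0.793).

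Of 33 other GABA genes tested in vDG input, 4 were lower in cKO and none higher: Gabbr2 (-0.54, SE 0.13, edgeR adjusted p = 0.0274), the synaptic scaffold gene Gphn (-0.55, SE 0.14, edgeR adjusted p = 0.0287), Gabrg1 (-0.76, SE 0.19, edgeR adjusted p = 0.0302) and Slc6a11 (-0.64, SE 0.16, edgeR adjusted p = 0.0317). Each of these 4 calls was lost without WT vDG input replicate 3 (edgeR adjusted p of 0.0535 to 0.136). All 4 were also lost with all 15 libraries in a single fit (edgeR adjusted p of 0.0769 to 0.183). With a block for the replicate number Gabrg1 (edgeR adjusted p = 0.133) and Gphn (0.0632) missed the threshold. With a lone cKO vDG input the log2 values were -0.889 to -0.43. The summed markers of several other cell types lay below the WT libraries in cKO vDG input as well. The astrocyte markers summed to 332 to 378 CPM, and 3 of 6 were lower. The interneuron markers summed to 395 to 403 CPM, with 7 of 9 values negative and none past the threshold by edgeR. The 6 microglia markers summed to 15.02 to 21.5 CPM against 22.96 to 36.9 CPM in WT, and the 5 endothelial and mural markers to 7.03 to 8.37 CPM against 9.2 to 10.9 CPM, again with none past it. The sums of granule, mossy and CA pyramidal markers overlapped between genotypes. The part of these markers in the members' differences was not tested.

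In dDG input none of the 7 passed by edgeR or by DESeq2, against 0.0325% of 15383 genes by edgeR and 186 of 9493 by DESeq2. By edgeR 0 of 7 had an unadjusted p under 0.05, against 12.2% of genes. Gabrd measured 9.89 and 12.3 CPM in cKO and 19.7, 15.9 and 10.4 CPM in WT, a difference of -0.46 (SE 0.23, edgeR adjusted p = 0.44). Gabra5 differed by 0.24 (SE 0.13, edgeR adjusted p = 0.481) and Gabra4 by -0.05 (SE 0.11, edgeR adjusted p = 0.909). Gabbr1 was the only member with groups apart, at 177 and 181 CPM against 224, 194 and 204 CPM (-0.22, SE 0.11, edgeR adjusted p = 0.435), as 15.5% of genes were in that direction and 13.9% in the other. The median of the 7 was -0.02, the same as over all genes.

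Whether the effect of genotype differed between regions or fractions was tested by interaction terms. For region, 0 of 16306 genes passed an FDR of 0.05 by edgeR, while DESeq2 called 260 genes, none of them members. Among the 7, Gabra2 (-0.44, SE 0.18, edgeR adjusted p = 0.324) and Gabrb1 (-0.49, SE 0.19, edgeR adjusted p = 0.312) had unadjusted p-values under 0.05, as had 12.3% of genes. The terms of Gabra4 (-0.10, SE 0.16, edgeR adjusted p = 0.867) and Gabrd (0.20, SE 0.33, edgeR adjusted p = 0.869) were smaller than their standard errors. For fraction, 0 of 16093 genes passed by edgeR and 0 by DESeq2. The 7 members gave terms of -0.06 to 0.19, none with an unadjusted p under 0.05, against 3.09% of genes. The comparisons above share libraries, the vDG inputs above all, and are not independent of each other.

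The tonic pair was set beside the other 5 members within each library, which removes library scaling, as the mean log2 CPM of Gabra4 and Gabrd minus that of the others. The difference was -1.13, -1.14 and -1.53 in WT dDG input and -1.67, -2.11 and -2.03 in WT vDG input, with the groups apart. It was -1.57 and -1.47 in cKO dDG and -1.81 and -1.79 in cKO vDG input, again apart. In the IPs it was -1.80, -1.41 and -1.92 in WT and -1.76 and -1.70 in cKO, and the WT IPs overlapped the WT vDG inputs. In both genotypes the tonic pair lay lower against the other members in ventral than in dorsal tissue. No test was made of this average, and cKO had 2 libraries a group. In WT it also holds the rise of Gabra2 in vDG (0.48) and Gabrd, whose libraries overlapped between regions.

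**Figure D4:**
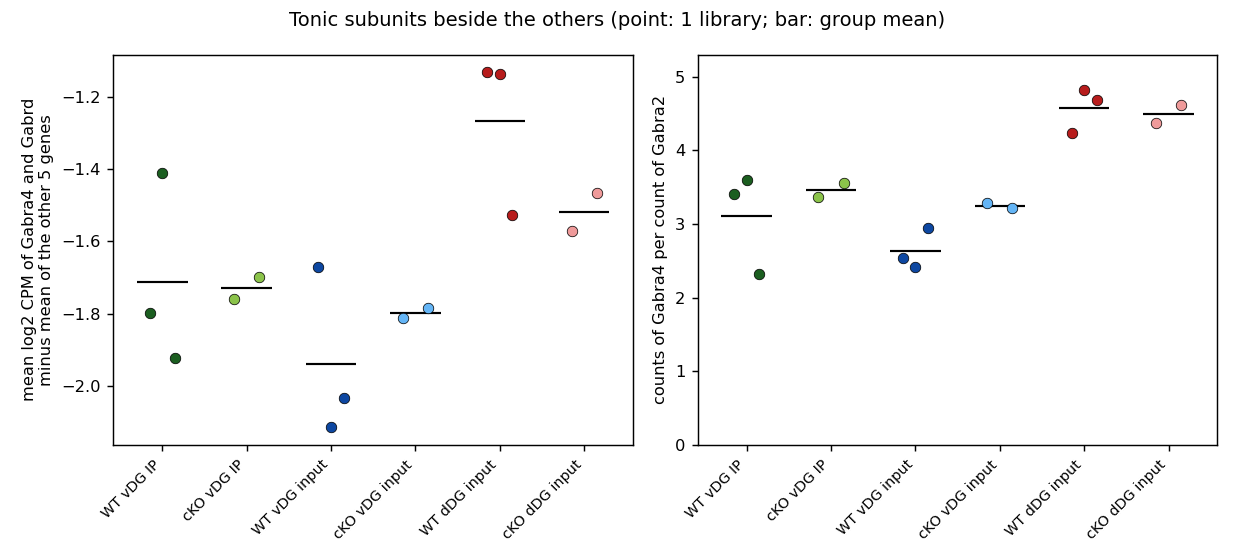
Left, mean log2 CPM of Gabra4 and Gabrd minus the mean of the other 5 genes; right, counts of Gabra4 per count of Gabra2; points are libraries and bars group means, by group. The 5 dDG inputs lay above the 5 vDG inputs in both panels, with ratios of 4.23 to 4.82 in dDG against 2.41 to 3.28 in vDG.

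Gabra4 was also set against its neighbour on chromosome 5, Gabra2. There were 4.23, 4.82 and 4.69 counts of Gabra4 per count of Gabra2 in WT dDG input and 2.54, 2.41 and 2.95 in WT vDG input. The ratio was 4.37 and 4.61 in cKO dDG and 3.28 and 3.22 in cKO vDG input. The WT IPs gave 3.41, 3.60 and 2.32 and the cKO IPs 3.36 and 3.56, all below the dDG inputs. This ratio was picked after the values were seen and carries no test. Gabra4 against Gabrb1, whose first bases it overlaps, was apart between regions in WT but not in cKO. Gabra4 exceeded Gabrb1 by 1.16, 1.69 and 1.63 on the log2 scale in WT dDG and by 1.01 to 1.06 in WT vDG input, while in cKO the differences were 1.45 and 1.346 in dDG and 1.304 and 1.353 in vDG input, which overlapped.

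Across the 15 libraries Pearson's r between the log2 CPM of Gabra4 and Gabrd was 0.65, and that of Gabra4 and Gabra2 was -0.01. The highest value among pairs of members was that of Gabrb1 and Gabrb2 (r = 0.80), followed by Gabra4 and Gabrb2 (r = 0.69). Among the 5 genes most like Gabra4, of 10365 genes of at least 5 CPM, were Ntng1 (r = 0.94), Lingo3 (r = 0.90), Olfml2b (r = 0.88) and Klf10 (r = 0.88). Among those most like Gabrd were Ust (r = 0.85), Slc35f3 (r = 0.84), Pdyn (r = 0.84) and AK047676 (r = 0.83). The 15 points share tissue, genotype and fraction, so these values describe the libraries and have no p-value.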

How the data were processed

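The 15 deposited files hold raw counts of reads per gene symbol in 1 library each. According to the study's methods and processing notes, the authors trimmed and checked reads (FastQC 0.11.4), aligned them to mm10 with STAR 2.4.2a, removed duplicates with SAMtools 0.1.19-444 and counted them on genes with HTSeq. The library kit does not mark strand. Ambiguous reads, which were left out, were 2.88 to 3.15% in IPs and 6.35 to 9.6% in inputs. The tables of the whole series hold the authors' own comparisons, made with DESeq2 1.4.5, and were not used. Whole-gene exonic lengths came from GENCODE M21.

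Groups and replicate numbers followed the sample titles. The titles number the cKO dDG libraries 1 and 2 where the deposited files carry 2 and 3. Input RNA was taken from tissue homogenates before the IP, but no source says whether equal numbers mark the same mice. Each pair of groups was fitted with edgeR 4.0.16 (limma 3.58.1, R 4.3.3), with filterByExpr, TMM scaling, the two-sided quasi-likelihood test and Benjamini-Hochberg adjustment over all genes tested, at an FDR of 0.05, or of 0.1 for cKO against WT in vDG IP as the study did. Interactions were fitted over the libraries they involve. CPM used TMM-scaled totals and log2 CPM a prior count of 2. DESeq2 1.42.0, other scalings, no count filter, a length trend removed, a single fit of all libraries, a block for the replicate number and leaving out each library were alternatives. The length trend with rescaled libraries, and levels by the longest transcript, were added after seeing the data. The script was tested on simulated data. Plots were drawn with Python 3.11.15 and matplotlib 3.10.9. The genes named were the 7 members, those of 41 other GABA genes that passed in at least 1 comparison, the 5 genes of at least 5 CPM most like each tonic subunit by Pearson's r, and Htr4, Lct and Trhr. Gm9962, Gad1 and some cell type markers were named besides. Some genes that meet this rule are counted but not reported here. The members and lists were chosen with earlier results of these data known. The p-values measure the spread between these pooled libraries.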

Additional observations from a re-analysis of the deposited data

How the results depend on the processing

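In the 7 comparisons of groups, 588 values of members were recomputed under the alternatives. Of these 501 kept their direction and side of the threshold, 40 passed it newly, 13 lost it and 34 changed sign, and of 245 values of the interaction terms 24 changed sign and none passed. The causes of the changes were not tested.

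WT IP against input gave 0 members called. It gave 1 with library size alone, 1 with all 15 libraries in a single fit, 4 with the length trend removed and 1 once the libraries were then rescaled (Gabrb1, -0.395). Over all genes 3582 of 15011 were called, and in these settings 3509, 5301 of 16493, 6655 and 4529. cKO IP against input gave 1 called. It gave 0 with library size alone, 5 with the length trend removed, and 2 with DESeq2 size factors, with DESeq2, with no count filter and with the length trend removed and libraries rescaled. Over all genes 4167 of 15126 were called, and in these settings 3981, 6610, 4240, 3852 of 16956, 4777 of 21035 and 4661. cKO vDG against dDG gave 1 called, 2 with DESeq2 size factors or no count filter and 0 with all libraries in a single fit. Over all genes 2642 of 15505 were called, and in these settings 2660, 2970 of 21568 and 1360 of 16493. cKO against WT in vDG input gave 0, and 2 with DESeq2 (644 of 10481 genes).

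Replicate numbers are shared between groups. In WT the correlation of deviations from the group means was 0.464, -0.165 and -0.329 for numbers 1, 2 and 3 between IP and input, and 0.384, -0.111 and 0.219 between regions. In cKO, where 2 libraries a group deviate by equal and opposite amounts and so give a single value, it was 0.441 between IP and input and 0.158 between regions. Between genotypes it was -0.176 to -0.002. The cKO dDG numbers differ between titles and deposited files. The pairing was therefore not taken as shown. With the number as a replicate block, 2 members were called in cKO IP against input, where 5714 of 15126 genes were. In cKO vDG against dDG 5 were called, as were 3859 of 15505 genes. These were Gabra4, Gabra5 at an adjusted p of 0.013, Gabrb1 at 0.00974, Gabrb2 at 0.0181 and Gabrd at 0.0254, by edgeR. In WT vDG against dDG 3 were called, as were 2947 of 15412 genes. With the length trend removed as well, 4 were called in WT IP against input (6621 of 15011 genes) and 5 in cKO (7768 of 15126 genes). With the block alone, Gabra5 gave 0.1 in cKO against WT in vDG IP and Gabrb1 -0.053 in dDG.

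Values near 0 changed sign. In WT IP against input these were Gabra4 with library size alone (-0.027), Gabra2 (0.083) and Gabrb2 (0.094) with the length trend removed, and 0.055 and 0.095 with the block in addition. In cKO IP against input, Gabra2 gave 0.009 with DESeq2 size factors, 0.019 with DESeq2, 0 with no count filter, 0.047 with all libraries in a single fit, 0.191 with the length trend removed and 0.184 with the block in addition, and library size alone gave -0.084 for Gabra4 and -0.104 for Gabrb2. Gabbr1 in WT vDG against dDG gave -0.005 with all libraries. In the interaction of genotype and fraction, Gabra4 gave -0.008 with DESeq2 size factors and with DESeq2, -0.058 with library size alone, -0.025 with all libraries and -0.002 with the length trend removed and libraries rescaled, and Gabra5 gave -0.012 with library size alone. Without Gabbr1 among the other members, the tonic pair lay at -1.494 in cKO vDG IP, -1.625 in cKO vDG input and -1.362 in cKO dDG input.

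Leaving out 1 library at a time gave 0 to 2 members called in WT vDG against dDG, 0 to 1 in cKO IP against input, 0 to 3 in cKO vDG against dDG and 0 to 1 in cKO against WT in vDG input. Log2 values that changed sign ranged from -0.328 to 0.078 for Gabra2 in WT IP against input, from -0.125 to 0.148 for Gabra2 and -0.282 to 0.056 for Gabrb1 in cKO IP against input, from -0.052 to 0.094 for Gabbr1, -0.067 to 0.174 for Gabra5 and -0.003 to 0.103 for Gabrb2 in WT vDG against dDG, and from -0.021 to 0.088 for Gabra2 in cKO vDG against dDG. For cKO against WT they ranged from -0.189 to 0.101 for Gabra5 in vDG IP, and in dDG from -0.058 to 0.018 for Gabra2, -0.084 to 0.031 for Gabra4 and -0.05 to 0.181 for Gabrb1. For the fraction interaction they ranged from -0.026 to 0.185 for Gabbr1, -0.122 to 0.323 for Gabra2, -0.147 to 0.111 for Gabra4, -0.122 to 0.183 for Gabra5, -0.033 to 0.335 for Gabrb1 and -0.286 to 0.143 for Gabrd, and for the region interaction from -0.028 to 0.418 for Gabrd.

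Over all genes, cKO against WT in vDG IP called 60 genes, 374 with DESeq2, 379 with no count filter, 470 with all libraries, 115 with library size alone and 0 at an FDR of 0.05. In vDG input it called 385, and 644, 660 and 140 in the first 3 of these, and in dDG 5, 186, 378 and 0, and 137 with the block. The region interaction called 0 genes, 260 with DESeq2, 362 with no count filter and 148 with the block, and cKO vDG against dDG 2642 and 1360 with all libraries. WT IP against input called 3582 genes and 6655 with the length trend removed, and cKO IP 4167 and 6610. Leaving out 1 library gave 0 to 184 genes in cKO against WT in vDG IP (0 without WT vDG IP replicate 2 or cKO vDG IP replicate 1, and 4 without cKO vDG IP replicate 2), 6 to 638 in vDG input and 0 to 130 in dDG. It gave 2252 and 2424 genes in cKO IP against input without cKO vDG input replicate 1 or 2, and 1428 in cKO vDG against dDG without cKO dDG input replicate 2. The share of calls that were lower in WT IP was 67.6%, 86.1% with library size alone, 55.1% with all libraries, 32.5% with the length trend removed and 60.5% once rescaled. In cKO IP it was 57%, 81.1% with library size alone and 29.2% with the length trend removed, and in cKO vDG against dDG 49.7% and 34.7% with library size alone. Gabrd, with the fewest counts, had the largest standard errors of the 7 in every comparison, and with 2 cKO libraries a group leaving 1 out left a lone library assumed to vary like the others.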
